A study of Homo sapiens with 4 samples.

Results

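Interferon-stimulated genes are the genes that a cell switches on when it meets interferon or viral nucleic acid. A set of 36 of them was chosen by gene symbol, current or former, and 35 were measured here among 18417 named genes. STAT2 was not analysed here. Each gene was read from the probe set with the highest mean over the 4 arrays. By role, 23 were effectors, 3 were sensors of RNA, 3 of 4 listed STAT and IRF transcription factors were measured, and 6 were enzymes that handle ISG15, ubiquitin or ADP-ribose.

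The study looked at gene expression after siRNA against PSF, an RNA- and DNA-binding nuclear protein, with 1 array per group. LNCaP is a human prostate cancer cell line that responds to androgen, and LTAD cells were derived from it by long-term androgen deprivation. The siPSF array came from LTAD cells transfected with siRNA against PSF, and the siControl array from LTAD cells transfected with a control siRNA. The other arrays were untransfected LTAD and LNCaP, without transfection. All 3 LTAD cultures were kept in phenol red-free RPMI with 10% serum stripped of hormones with charcoal and dextran. LNCaP cells spent 24 h in the same kind of medium with 2.5% stripped serum, so line and culture cannot be told apart. The siRNA sequences, doses and transfection times, and any array batch, are not given in the sources used here. With 1 array per group there is no replicate error and no test across samples. Every difference below compares single arrays, and in bulk RNA fewer responding cells and less RNA per cell cannot be told apart.

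In the classical pathway, type I interferon binds IFNAR1 and IFNAR2, and the kinases JAK1 and TYK2 activate STAT proteins, STAT2 among them. These join IRF9 in a complex that binds the interferon-stimulated response element (ISRE) in promoters. Cytosolic sensors such as RIG-I and MDA5 recognise viral double-stranded RNA and, through MAVS and the kinase TBK1, activate IRF3, which can induce some of the same genes directly, IFIT1 and IFIT2 among them. LNCaP is known for weak JAK1 expression and a poor response to added interferon.

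Levels are log2 values after quantile normalization of the 4 arrays, which gives every array the same distribution. On the deposited scale a shift common to most genes separated the transfected from the untransfected arrays. The median difference of all genes there was 0.01 for siPSF minus siControl, -1.01 for siPSF minus LTAD, 0.26 for LTAD minus LNCaP, -0.75 for siControl minus LNCaP and -1.02 for siControl minus LTAD. A deposited level under 7.24, the median of all gene values, is called low, since no detection call was used. By that mark 17 of the 35 genes were low in all 4 arrays, 12 in some arrays and 6 in none. Of all 18417 genes, 7368 were low in all 4. The mark lies on the deposited scale, so the lower level of the transfected arrays there enters it. HERC6 and IRF9 were called low with siControl though they read 7.46 and 7.32 after quantile normalization. Genes were counted as apart at 1.5-fold, a log2 difference of 0.58. SFPQ, which encodes PSF, read 9.87 with siPSF, 11.23 with siControl, 10.82 in untransfected LTAD and 10.83 in LNCaP. The siPSF array was thus the lowest of the 4 for the siRNA target, by -1.37 against siControl. Of the luminal prostate markers, 4 were measured. The keratin KRT8 read 12.04, 11.84, 12.49 and 12.07 in the same order of arrays, and KRT18 and the prostate factor HOXB13 were also over 10 in each. KLK3, the androgen-driven gene of prostate-specific antigen, read 7.11 with siPSF, 7.47 with siControl, 11.06 in untransfected LTAD and 12.89 in LNCaP, far lower in both transfected arrays. VIM, a mesenchymal marker, was 2.15 and 1.88 above untransfected LTAD in the siPSF and siControl arrays. It was 1 of 6 measured markers of stroma and endothelium, whose median differences from untransfected LTAD were only 0.16 and 0.17. PTPRC, the pan-leukocyte marker, read 3.62, 3.40, 3.45 and 3.52, low in all 4. Of the 7 measured immune markers, 6 were low with siPSF and 7 with siControl. Their levels ran from 3.62 to 7.75 with siPSF, 3.40 to 7.57 with siControl, 3.45 to 8.11 in untransfected LTAD and 3.52 to 8.70 in LNCaP. All 7 were higher with siPSF than with siControl, by a median of 0.22, with LYZ, lysozyme, at 0.63, and their part in the results below was not tested.

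The RefSeq promoter table (GRCh38.p14) held windows for 28 of the 35 genes, from 250 bases before the annotated start to 50 after it. Windows were searched on both strands for the ISRE-like letters GAAA, any 2 bases, GAAA (TTTC, any 2 bases, TTTC on the other strand) and the letters TTCNNNGAA of a gamma-activated site (GAS), an element of promoters that respond to interferon gamma. Overlapping matches, also of the 2 motifs with each other, were each counted. ISRE-like letters stood in 19 of the 28 windows (67.9%), against 3.65% of 27305 promoter windows. GAS-like letters stood in 8 of 28 (28.6%), against 7.88% of all windows. The sequences below are the last 200 bases before the start for the 3 genes with the largest siPSF minus siControl difference that have a window, and for the gene with the smallest difference. Capitals mark ISRE-like matches. IFIT1 is shown from chr10:89392423-89392622 on the plus strand, IFIT3 from chr10:89327797-89327996 on the plus strand, RSAD2 from chr2:6865685-6865884 on the plus strand and SAMD9 from chr7:93117980-93118179 on the minus strand.
IFIT1: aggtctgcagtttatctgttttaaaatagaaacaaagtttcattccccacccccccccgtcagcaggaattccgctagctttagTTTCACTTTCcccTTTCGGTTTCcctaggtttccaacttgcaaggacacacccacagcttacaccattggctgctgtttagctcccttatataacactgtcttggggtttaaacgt
IFIT3: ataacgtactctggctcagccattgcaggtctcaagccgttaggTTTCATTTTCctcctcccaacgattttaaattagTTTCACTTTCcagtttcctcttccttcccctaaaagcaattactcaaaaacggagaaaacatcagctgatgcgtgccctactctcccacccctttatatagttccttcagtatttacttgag
RSAD2: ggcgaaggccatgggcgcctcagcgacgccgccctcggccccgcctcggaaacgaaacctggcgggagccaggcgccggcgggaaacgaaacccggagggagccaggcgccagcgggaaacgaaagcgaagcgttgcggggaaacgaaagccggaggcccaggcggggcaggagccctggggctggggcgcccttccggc
SAMD9: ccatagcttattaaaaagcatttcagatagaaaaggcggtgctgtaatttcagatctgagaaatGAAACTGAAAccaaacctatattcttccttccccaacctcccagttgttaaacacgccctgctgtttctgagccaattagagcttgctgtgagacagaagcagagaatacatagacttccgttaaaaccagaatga
IFIT1 and IFIT3 each held 2 matches, IFIT1 with first bases at -116 and -103 from the start and IFIT3 at -156 and -122. SAMD9, with the smallest difference of the 35 genes, held 1. RSAD2 held none of these letters, which says only that these letters are not in this window. Its window held similar letters, GAAACGAAA, with 1 base in place of 2 between the GAAA letters, which the search did not count.

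With PSF knocked down, a group of antiviral effector genes was higher than with the control siRNA. Led by OASL, IFIT1, IFIT2 and IFIT3, 10 of the 35 genes were at least 1.5-fold higher and 0 were at least 1.5-fold lower. Over all genes 0.923% were at least 1.5-fold higher and 2.59% lower. The median difference was 0.22 over the 35 genes and -0.01 over all 18417, and 26 of the 35 lay above 0, against 48.1% of all genes. At 2-fold or more, 5 of the 35 genes were higher, among 17 genes in all (0.0923%). In all 10 of the genes past 1.5-fold the siControl level was low, but so it was in 28 of the 35 genes. The lower deposited level of the transfected arrays enters that mark. Whether the control level of the 10 genes exceeded the array's background is not known, so the sizes are uncertain. The set was chosen with earlier results of these data known, so its counts beside all genes are a description only.

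**Figure D1:**
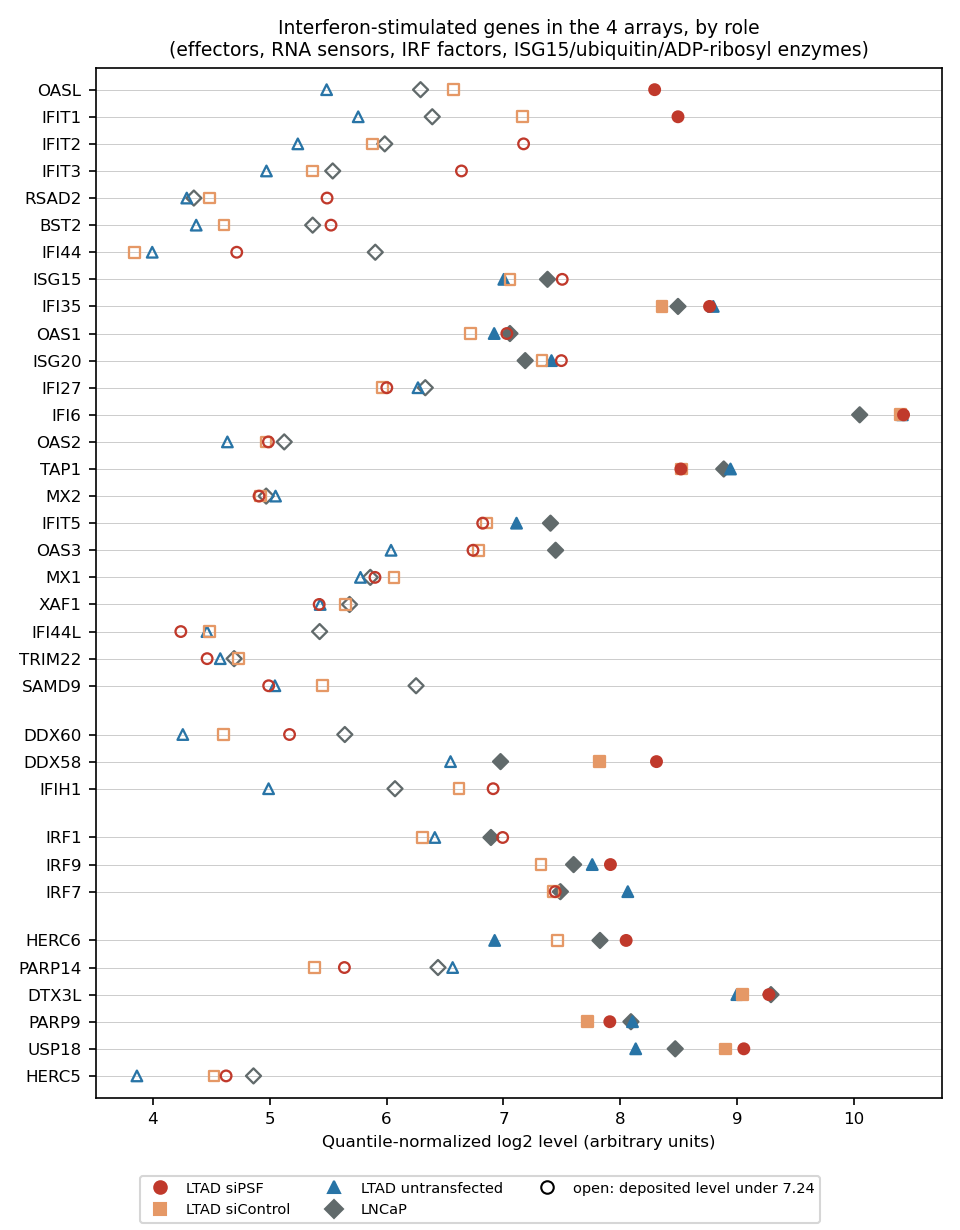
Quantile-normalized log2 levels of the 35 genes (x axis, arbitrary units), grouped by role and ordered within a role by the siPSF minus siControl difference. Each symbol is 1 array, and open symbols mark a deposited level under 7.24. The siPSF array stands to the right of the other 3 for OASL, IFIT1, IFIT2 and IFIT3.

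OASL encodes an oligoadenylate synthetase-like protein without synthetase activity that enhances RIG-I signalling. Its level was 8.29 with siPSF, 6.57 with siControl, 5.49 in untransfected LTAD and 6.29 in LNCaP. It was highest with siPSF and lowest in untransfected LTAD, and its siPSF minus siControl difference of 1.72 was the largest of all 18417 genes. IFIT1, which binds viral RNA whose cap lacks the methylation of host messages, read 8.49 with siPSF, 7.17 with siControl, 5.76 in untransfected LTAD and 6.39 in LNCaP. Its difference of 1.33 ranked 5 among all genes. OASL and IFIT1 were the 2 genes of the set at or over 7.24 with siPSF alone.

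IFIT2, an RNA-binding tetratricopeptide protein, read 7.17 with siPSF, 5.88 with siControl, 5.24 in untransfected LTAD and 5.98 in LNCaP. IFIT3, which stabilises IFIT1 in a shared complex, read 6.64, 5.37, 4.97 and 5.54 in the same order of arrays. Both had their highest level with siPSF and their lowest in untransfected LTAD, with siPSF minus siControl differences of 1.29 and 1.27 (ranks 7 and 8). Both were low in all 4 arrays. RSAD2, or viperin, which makes a chain-terminating nucleotide, read 5.49 with siPSF, 4.48 with siControl, 4.29 in untransfected LTAD and 4.35 in LNCaP. It too was low throughout, with a difference of 1.01 (rank 17).

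BST2, or tetherin, which holds budding virions at the cell surface, read 5.52 with siPSF, 4.61 with siControl, 4.37 in untransfected LTAD and 5.37 in LNCaP. The siPSF and LNCaP arrays were close, and both LTAD controls lay under them. IFI44, an interferon-induced protein with antiviral activity, read 4.72 with siPSF, 3.84 with siControl, 3.99 in untransfected LTAD and 5.90 in LNCaP. It was highest in LNCaP, and the siPSF minus siControl difference of 0.87 left it below that line. Both were low in all 4 arrays.

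The other 16 effectors were under 1.5-fold, from -0.46 to 0.45, with a median of -0.01. ISG15, a ubiquitin-like modifier, was 0.45 higher with siPSF than with siControl, and OAS1, an oligoadenylate synthetase, 0.31. IFI35 read 8.76 with siPSF, 8.36 with siControl, 8.80 in untransfected LTAD and 8.49 in LNCaP. TAP1, a subunit of the transporter that loads peptides for MHC class I, read 8.52, 8.52, 8.94 and 8.89 in the same order of arrays. IFI6, a mitochondrial protein of interferon-treated cells and one of 7 genes of the set not low in either transfected array, read 10.42 with siPSF, 10.40 with siControl, 10.41 in untransfected LTAD and 10.05 in LNCaP. The 3 LTAD arrays were together and LNCaP lay under them. The GTPases MX1 and MX2, standard markers of a type I interferon response, had differences of -0.16 and -0.01, at low levels throughout. OAS2, OAS3 and IFI27 had differences of 0.02, -0.05 and 0.04. Over all 23 effectors the median difference was 0.04.

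Lowest of the set was SAMD9, an antiviral factor active against poxviruses, at 4.99 with siPSF, 5.45 with siControl, 5.04 in untransfected LTAD and 6.25 in LNCaP. TRIM22, a tripartite-motif ubiquitin ligase, read 4.46, 4.73, 4.58 and 4.70 in the same order. IFI44L read 4.24, 4.48, 4.46 and 5.43, and XAF1, an antagonist of the apoptosis inhibitor XIAP, 5.42, 5.65, 5.43 and 5.68. These 4 genes were low in all 4 arrays and under 1.5-fold between siPSF and siControl, at -0.46, -0.27, -0.24 and -0.23.

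All 3 RNA sensors were higher with siPSF than with siControl, each by less than 1.5-fold. DDX58, the gene of RIG-I (current symbol RIGI), read 8.31 with siPSF, 7.82 with siControl, 6.55 in untransfected LTAD and 6.98 in LNCaP. It was not low in either transfected array, and its difference of 0.49 was the largest of the 7 such genes, whose differences ran from -0.003 to 0.49, with a median of 0.19. IFIH1, the gene of MDA5, read 6.91, 6.62, 4.99 and 6.07 in the same order of arrays. DDX60, a helicase reported to promote RIG-I signalling, read 5.17, 4.60, 4.26 and 5.64. For DDX58 and IFIH1 both transfected arrays lay above both untransfected ones after quantile normalization, while DDX60 was highest in LNCaP. IFIH1 and DDX60 were low in all 4 arrays. On the deposited values IFIH1 was highest in LNCaP, at 6.45 against 6.43 with siPSF and 6.08 with siControl.

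Of the transcription factors, IRF1, a GAS-driven activator that interferon gamma induces strongly, read 6.99 with siPSF, 6.31 with siControl, 6.41 in untransfected LTAD and 6.89 in LNCaP. The siPSF and LNCaP levels were close, and the siPSF minus siControl difference was 0.69. IRF9, the DNA-binding partner of STAT2, read 7.92, 7.32, 7.76 and 7.60 in the same order of arrays. Its difference of 0.59 was just past 1.5-fold, and siControl stood lowest of the 4. IRF7, the factor that amplifies interferon alpha production, read 7.44, 7.43, 8.06 and 7.49. It differed by 0.02, and untransfected LTAD stood above the rest.

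Among the enzymes, HERC6 read 8.05 with siPSF, 7.46 with siControl, 6.92 in untransfected LTAD and 7.83 in LNCaP. It belongs to the HERC family of ubiquitin ligases, in which human HERC5 is the main ligase for ISG15. At 0.59 HERC6 was just past 1.5-fold, as DDX60 at 0.56 was just under it. HERC5 was 0.10 higher with siPSF, and USP18, which removes ISG15 and damps receptor signalling, 0.16. USP18 read 9.06 with siPSF, 8.90 with siControl, 8.13 in untransfected LTAD and 8.47 in LNCaP, not low in any array. PARP9 and DTX3L, which act as a complex in ADP-ribosylation and ubiquitination, were 0.19 and 0.22 higher, and PARP14, a mono-ADP-ribosyltransferase, 0.26. PARP14 read 5.64, 5.38, 6.57 and 6.44 in the same order of arrays, with both transfected arrays below both untransfected ones. All 6 enzymes were above 0, with a median of 0.21. The median was 0.49 over the 3 sensors and 0.59 over the 3 factors, against 0.04 over the effectors. OAS1, OAS2 and OAS3 also bind double-stranded RNA, and with them among the sensors the sensor median was 0.30.

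Neighbours on a chromosome did not always read alike. IFIT2, IFIT3, IFIT1 and IFIT5 lie side by side on chromosome 10, with IFIT1B between IFIT3 and IFIT1. IFIT5 differed by -0.03, at 6.82 with siPSF, 6.86 with siControl, 7.11 in untransfected LTAD and 7.40 in LNCaP, although the other 3 were past 2-fold. IFI44 and IFI44L, adjacent on chromosome 1, differed by 0.87 and -0.24. The adjacent HERC6 and HERC5 on chromosome 4 differed by 0.59 and 0.10. OAS1, OAS3 and OAS2 on chromosome 12 were all under 1.5-fold.

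Genes with and without ISRE-like letters were set side by side. The 19 genes with such letters had a median siPSF minus siControl difference of 0.16, and 4 were past 1.5-fold. The 9 genes without had a median of 0.49, and 4 were past it. Genes with no promoter window, OASL and IFIT2 among them, are in neither group. IFIT5, IFI6 and HERC5 each held 3 ISRE-like matches and differed by -0.03, 0.03 and 0.10. The 8 genes with GAS-like letters, IRF1 and IRF9 among them, had a median of 0.49 with 3 past 1.5-fold, against 0.18 with 5 past it for the 20 without.

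**Figure D2:**
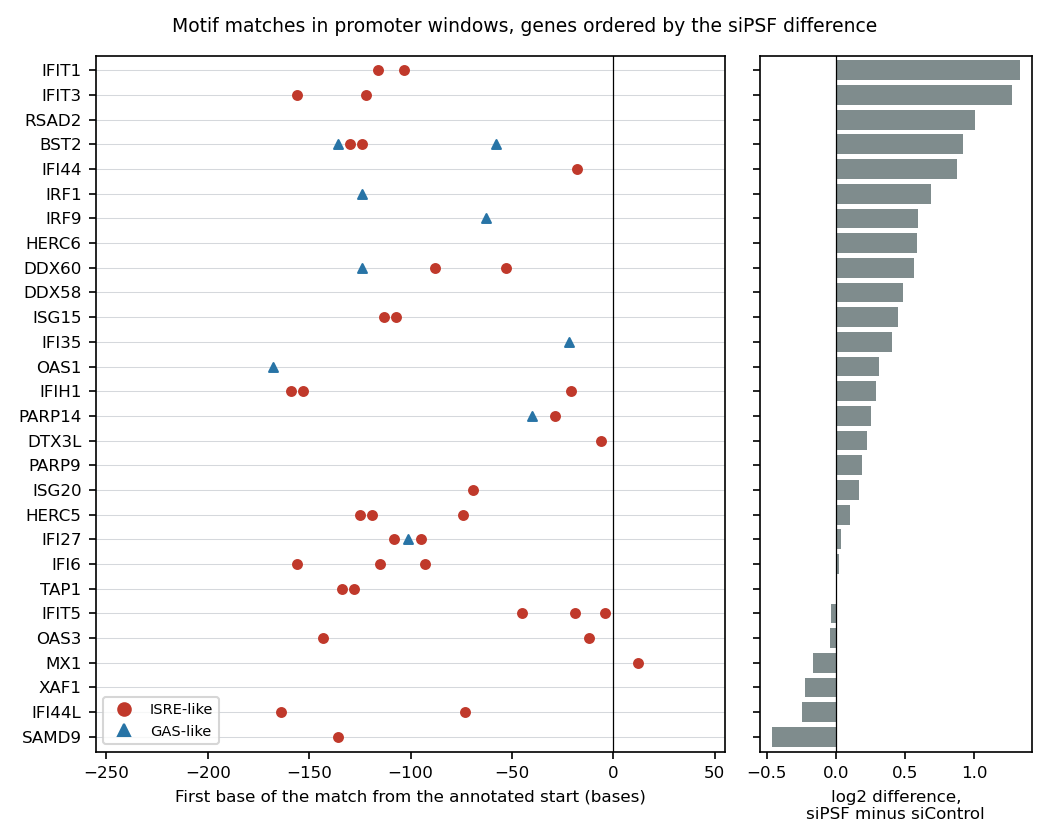
ISRE-like (circles) and GAS-like (triangles) matches in the promoter windows of 28 genes, by distance of the first base of a match from the annotated start in bases (left), and the log2 difference siPSF minus siControl of the same genes (right). IFIT5, near 0, has 3 ISRE-like matches, and RSAD2, at 1.01, has none of the exact letters searched.

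Genes low in all 4 arrays could be read against others of that kind. Of 17 such genes in the set, 5 were at least 1.5-fold higher with siPSF (IFIT2, IFIT3, RSAD2, BST2 and IFI44) and 0 lower, against 1.19% higher and 1.79% lower among 7368 genes low in all arrays. Of the 18 genes that reached 7.24 in at least 1 array, 5 were at least 1.5-fold higher, where the background among 11049 genes was 0.742%. OASL and IFIT1 reached 7.24 only through the siPSF array, so that count is no support. In untransfected LTAD or LNCaP 16 genes reached 7.24. Of these, 3 were at least 1.5-fold higher with siPSF (IRF1, IRF9 and HERC6), against 0.691% of 11003 genes. IRF9 and HERC6, both at 0.59, were just past the cut of 0.58, so this count depends on where the cut lies. The middle 95% of differences ran from -0.54 to 0.46 over genes low in all arrays, and from -0.65 to 0.41 over the others.

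Against untransfected LTAD in place of siControl, the differences were larger for 7 of the 10 genes above and smaller for IFI44 (0.72), IRF1 (0.58) and IRF9 (0.16), of which IRF1 and IRF9 were under 1.5-fold. OASL and IFIT1 were 2.81 and 2.74 higher with siPSF, IFIT2 1.93, IFIT3 1.67, RSAD2 1.20 and BST2 1.15. The sensors IFIH1 and DDX58 were 1.92 and 1.76 higher, and HERC6 1.13. In all, 14 of the 35 genes were at least 1.5-fold higher and 2 lower, where 13.3% of all genes were higher and 10.2% lower. PARP14 and IRF7 were the 2 lower genes, at -0.93 and -0.62. The median was 0.27 over the set and 0.06 over all genes.

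This comparison depended on the scale. On the deposited values, with their shift of -1.01 over all genes, 5 of the 35 genes were still at least 1.5-fold higher and 20 were lower, where 152 of all genes were higher and 14732 lower, against 2452 and 1875 after quantile normalization. OASL was 1.61 higher there, IFIT1 1.56, IFIT2 0.70, IFIH1 0.68 and DDX58 0.64. RSAD2 and BST2 turned to -0.07 and -0.12. Relative to the median of all genes, the set's median was 0.22 higher after quantile normalization and 0.18 higher on the deposited values. Both comparisons share the siPSF array and are not independent. The siPSF array was the highest of the 4 for 15 of the 35 genes (42.9%), against 25.9% of all genes.

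**Figure D3:**
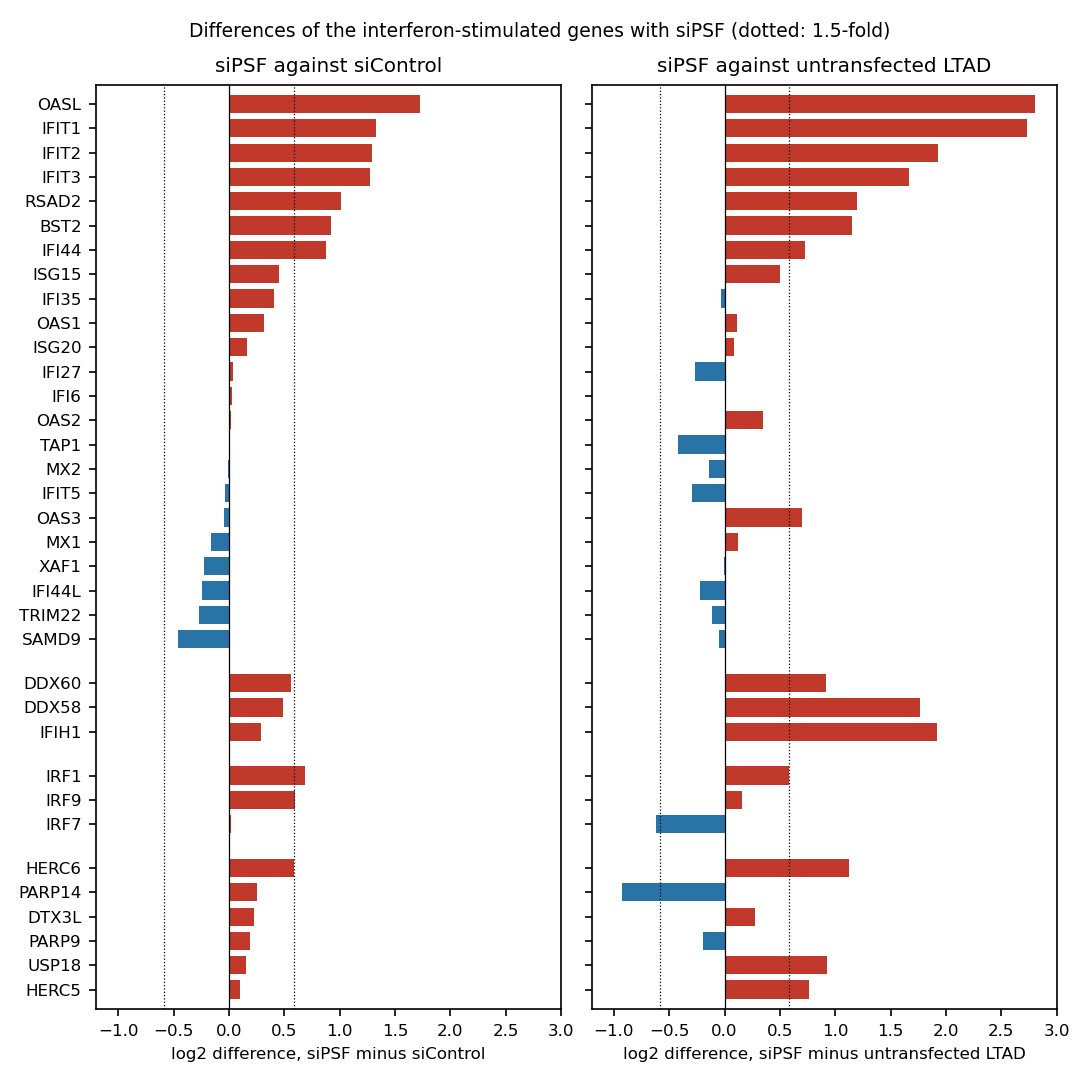
Log2 difference of each of the 35 genes after quantile normalization (x axis) for siPSF minus siControl (left) and siPSF minus untransfected LTAD (right), by role from top to bottom (effectors, RNA sensors, IRF factors, enzymes). Dotted lines mark 1.5-fold, which 10 genes pass upward on the left and 14 on the right.

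The siControl array, with no siRNA against PSF, also differed from untransfected LTAD. Among the 3 sensors, IFIH1 was at 6.62 with siControl against 4.99 in untransfected LTAD and DDX58 at 7.82 against 6.55, while DDX60 differed by 0.35, under 1.5-fold. IFIT1 was 1.41 higher with siControl, OASL 1.08, USP18 0.77 and OAS3 0.75. In the other direction PARP14 read 5.38 with siControl against 6.57 in untransfected LTAD, and IRF7 differed by -0.64, IFI35 by -0.44 and IRF9 by -0.44. At 1.5-fold 8 of the 35 genes were higher, where 14.2% of all genes were, and 2 were lower, where 9.14% of all genes were. The set's median was 0.15 and that of all genes 0.07, so the set as a whole lay near the background. On the deposited values 0 genes were higher and 27 lower, and all genes split 191 to 14679, against 2607 to 1683 after quantile normalization. Relative to all genes the set's median was 0.09 after quantile normalization and -0.08 on the deposited values, a change of sign. IFIH1, IFIT1 and DDX58 were above 0 on both scales (0.32, 0.17 and 0.15 deposited), while OASL turned to -0.20.

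The 2 lines without transfection were then compared. Untransfected LTAD had lower levels of many of these genes than LNCaP. At 1.5-fold 0 of the 35 genes were higher, where 5.5% of all genes were, and 12 were lower, where 7.4% of all genes were. Most of these 12 were low in both lines. IFI44, DDX60, SAMD9, IFIH1, HERC5, BST2, IFI44L and IFIT2 were low in every array, and OASL and IFIT1 in both LTAD and LNCaP. The sizes of these differences are therefore uncertain. OAS3 was low in LTAD but not in LNCaP, and HERC6 was low in neither. The median was -0.34 over the set and 0.01 over all genes. IFI44 was lowest at -1.91, with levels of 3.99 in LTAD and 5.90 in LNCaP. OAS3, the largest oligoadenylate synthetase, differed by -1.41 (6.74 with siPSF, 6.79 with siControl, 6.04 in LTAD and 7.45 in LNCaP), DDX60 by -1.39, SAMD9 by -1.21 and IFIH1 by -1.08. Of the highest, IRF7 read 8.06 in LTAD against 7.49 in LNCaP, IFI6 differed by 0.36, IFI35 by 0.30 and ISG20, an exonuclease, by 0.22. ISG20 read 7.50 with siPSF, 7.33 with siControl, 7.41 in LTAD and 7.19 in LNCaP. The 12 lower genes comprised 8 effectors, 2 sensors and 2 enzymes, the last HERC5 at -0.998 and HERC6 at -0.90. None of the 3 factors was past 1.5-fold. On the deposited values 1 gene was higher and 9 were lower, with all genes split 3151 to 677, against 1013 to 1363 after quantile normalization. Relative to all genes the set's median was -0.35 after quantile normalization and -0.39 on the deposited values.

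In siControl LTAD against LNCaP, 8 of the 35 genes were at least 1.5-fold lower (7.14% of all genes) and 2 were higher (9.89% of all genes). IFI44 differed by -2.06, PARP14 by -1.06, DDX60 by -1.04, IFI44L by -0.94 and SAMD9 by -0.80, and the 2 higher genes were DDX58 at 0.85 and IFIT1 at 0.77. The next highest were IFIH1 at 0.55 and USP18 at 0.43. In untransfected LTAD, IFIH1, OASL, IFIT1, HERC6 and HERC5 read lower than LNCaP, at -1.08, -0.80, -0.63, -0.90 and -0.998. With siControl the same genes stood at 0.55, 0.28, 0.77, -0.36 and -0.34. IFI44, DDX60, SAMD9, IFI44L, BST2 and OAS3 were at least 1.5-fold below LNCaP in both arrays. Both comparisons share the LNCaP array. The median was -0.24 over the set and 0.08 over all genes. IFIH1, OASL and IFIT1 turned to -0.37, -0.65 and -0.11 on the deposited values, where all genes had a median of -0.75. DDX58 stood at 0.01 there. On the deposited values 0 of the 35 genes were higher and 30 lower, with all genes split 157 to 12070, against 1822 to 1315 after quantile normalization, and the set's median relative to all genes was -0.40, against -0.32 after quantile normalization.

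**Figure D4:**
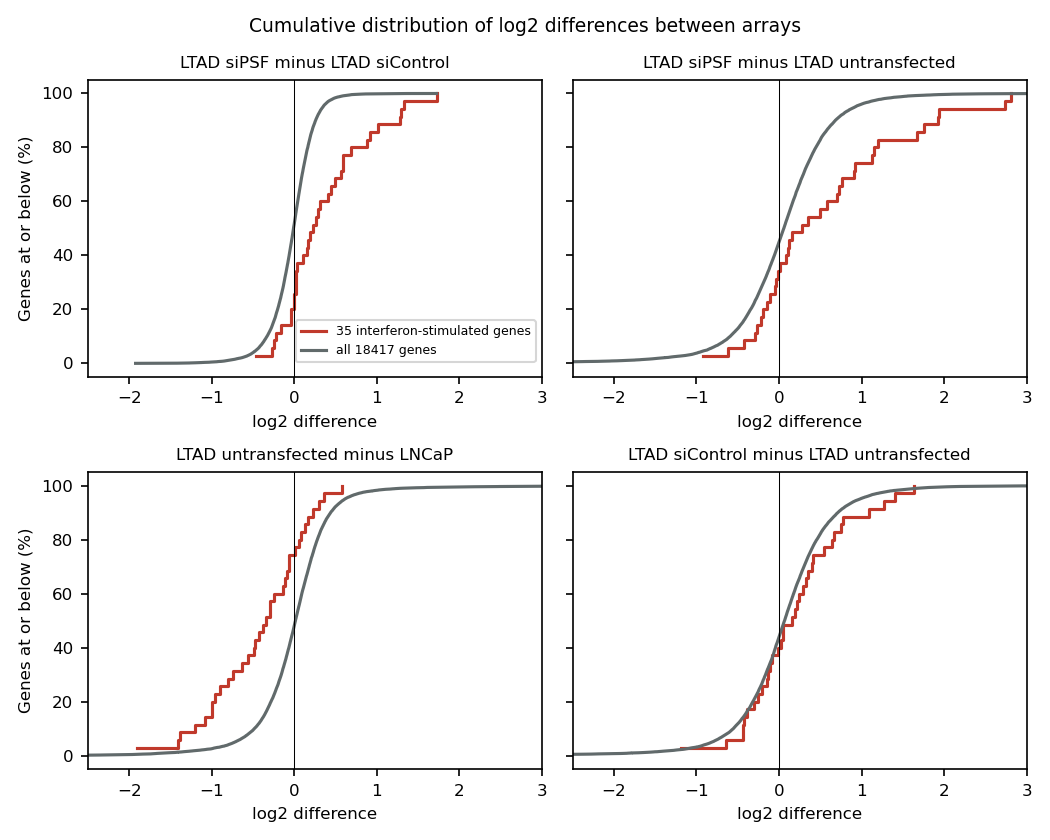
Share of genes (y axis, percent) at or below each log2 difference (x axis) for 4 comparisons, for the 35 interferon-stimulated genes and for all 18417 genes after quantile normalization. The red line lies right of the grey one with siPSF, left of it for untransfected LTAD against LNCaP, and close to it for siControl against untransfected LTAD.

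Genes upstream in the pathway were compared between siPSF and siControl. Of 14 interferon ligand genes, 13 were low in each array, 0 were at least 1.5-fold higher with siPSF and 1 was lower, IFNA5 at -0.60. IFNA5 was low in all 4 arrays, and on the deposited values 0 ligand genes were lower. The ligand gene not low, IFNL3, read 8.22 with siPSF, 8.02 with siControl, 9.25 in untransfected LTAD and 8.92 in LNCaP. IFNB1, the gene of interferon beta, read 3.64 with siPSF, 3.10 with siControl, 3.72 in untransfected LTAD and 3.36 in LNCaP, low in every array. Of 12 genes of receptors, their kinases and inhibitors of the pathway, 0 were past 1.5-fold in either direction, with a median of -0.02. JAK1 read 6.58 with siPSF, 6.74 with siControl, 7.09 in untransfected LTAD and 7.49 in LNCaP. Of 18 further genes of nucleic acid sensing and signalling, 0 were past 1.5-fold, with a median of -0.01. IRF3 read 8.83 with siPSF, 8.79 with siControl, 8.39 in untransfected LTAD and 8.57 in LNCaP, and differed by 0.05 between the transfected arrays. TLR3, an endosomal receptor of double-stranded RNA, was 0.18 higher with siPSF than with siControl. It was also 1.28 and 1.102 above untransfected LTAD in the siPSF and siControl arrays.

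A second list of interferon-induced genes, none of them in the set, held 38 measured genes. Like the set, it was chosen with earlier results of these data known, so it is no independent check. With siPSF 6 were at least 1.5-fold higher than with siControl and 0 lower, against 0.923% and 2.59% of all genes, with a median of 0.22 and 27 above 0. CXCL10, a chemokine that attracts T cells, read 5.02 with siPSF, 3.48 with siControl, 3.36 in untransfected LTAD and 4.81 in LNCaP. It was low in all arrays, with siPSF and LNCaP above both LTAD controls. GBP3, a guanylate-binding protein, read 5.05, 4.29, 6.39 and 5.26 in the same order of arrays, so that the siPSF level lay above siControl by 0.77 and below untransfected LTAD by -1.34. GBP2 likewise was 0.68 above siControl and differed from untransfected LTAD by -1.47. GBP3 was low in all 4 arrays, and GBP2 in all but LNCaP. PSMB10 and TAP2 were lowest of the list against siControl, at -0.36 and -0.22. In untransfected LTAD 11 of the 38 genes were at least 1.5-fold below LNCaP and 2 above, against 7.4% and 5.5% of all genes, with a median of -0.25. IFITM1, a membrane protein that blocks viral entry, was lowest there, at 7.31 against 9.13. The same gene read 9.84 with siPSF and 9.66 with siControl.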

How the data were processed

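Per the submitters' processing notes, the authors used Affymetrix Expression Console and RMA to make the deposited log2 levels of 4 Affymetrix whole-transcript arrays. No version, setting or list of arrays processed together is given in the sources used here. Their medians over genes differed between arrays, so values were quantile-normalized over the 4 arrays.

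Of 33297 probe sets, 19460 had 1 gene symbol, 1754 several and 12083 none in the platform annotation, and 19429 were matched to the RefSeq gene table. Those with several symbols were not used. The probe set with the highest mean deposited level stood for each of 18417 genes. The genes of the set and the gene lists were chosen with earlier results of these data known.

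With 1 array per group no test was run: differences, counts past 1.5-fold and medians are given beside those of all genes, and precision is limited by having 4 arrays. Levels in all arrays are given for the 8 largest and 4 smallest siPSF minus siControl differences, the STAT and IRF factors, the sensors and the 4 largest differences each way in the other comparisons. From the other lists, the 2 largest differences each way, JAK1, IRF3 and SFPQ could be named. Alternatives were the deposited and the median-centred values, filters on low genes, other folds and another role grouping. Calculations used Python 3.11.15 with numpy 2.4.6 and pandas 2.3.3, and the script was tested on simulated data.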

Additional observations from a re-analysis of the deposited data

How the results depend on the processing

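Of 136 alternative values for 19 results, 89 stayed close to the value reported (medians within 0.1 on the log2 scale, counts within 1.5 times), 43 moved and 4 changed sign. On the deposited values the set's median was -0.83 for siPSF minus LTAD and -1.10 for siControl minus LTAD, both reversed, -0.13 for LTAD minus LNCaP and -1.15 for siControl minus LNCaP. Genes at least 1.5-fold higher and lower there numbered 5 and 20 for siPSF minus LTAD, 0 and 27 for siControl minus LTAD and 0 and 30 for siControl minus LNCaP, and 1 was higher for LTAD minus LNCaP. These counts follow the shift of all genes on that scale. With median-centred values 8 of the 35 genes were higher for siPSF minus siControl (0.749% of all genes), in place of 10. There 1 gene was lower for siPSF minus LTAD (8.16%) and 1 lower for siControl minus LTAD (6.64%). For siControl minus LNCaP 4 were higher (16.4%).

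A filter kept the 18 genes of the set that reached the level mark in at least 1 array. Of these, 5 were higher for siPSF minus siControl (0.742% of all such genes). For siPSF minus LTAD 6 were higher (13.8%) and 1 lower (13.1%). Lower than LNCaP were 4 in untransfected LTAD (8.81%) and 2 with siControl (8.25%). For siControl minus LTAD 5 were higher (14.9%) and 1 lower (11.7%). The siControl minus LTAD median turned to -0.047, and the effectors' siPSF minus siControl median was 0.24. OASL and IFIT1 passed this filter only through the siPSF array, where they were high, so the values with siPSF are no support. OAS3 and IRF1 passed it only through LNCaP, so the counts lower than LNCaP are no support either. For effectors that passed in an array outside the comparison, the siPSF minus siControl median was 0.09. With genes reaching the mark in an array outside the comparison, 3 of 16 were higher for siPSF minus siControl (0.691% of all such genes). For siPSF minus LTAD 4 of 16 were higher (14.5%) and 1 lower (12.3%), with a median of 0.13. Lower than LNCaP were 3 of 11 in untransfected LTAD (8.69%) and 0 of 16 with siControl (7.66%). For siControl minus LTAD 5 of 18 were higher (15.9%) and 1 lower (11.0%), with a median of -0.047.

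At the lower fold tried, 14 genes were higher for siPSF minus siControl (6.01% of all genes) and 1 was lower (10.5%). For LTAD minus LNCaP 2 were higher (16.5%) and 18 lower (17.4%). For siControl minus LNCaP 5 were higher (26.3%) and 15 lower (16.4%). For siControl minus LTAD 13 were higher (28.5%) and 6 lower (19.8%). At 2-fold, 5 were higher for siPSF minus siControl (0.0923% of all genes) and 0 lower (0.494%). For siPSF minus LTAD 9 were higher (3.95%) and 0 lower (3.76%), and for LTAD minus LNCaP 0 (1.69%) and 5 (2.55%). For siControl minus LNCaP 0 were higher (2.19%) and 3 lower (2.35%), and for siControl minus LTAD 4 (4.69%) and 1 (3.15%). The RNA sensors' median was 0.30 with OAS1, OAS2 and OAS3 among them. No paired analysis was possible because each group holds 1 array, and no array could be left out. Signal over background is unknown, so differences among the 17 genes low in all arrays are the least certain.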

Other observations

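Targets of NF-kB, the other main factor downstream of RNA sensing, were read in the same arrays. Of 14 measured targets, 1 was at least 1.5-fold higher with siPSF than with siControl and 0 were lower, against 0.923% and 2.59% of all genes, with a median of 0.06. That gene was NFKBIA, which encodes the NF-kB inhibitor, at 10.05 with siPSF, 9.32 with siControl, 10.43 in untransfected LTAD and 10.73 in LNCaP, so that both untransfected arrays were above the siPSF array. NFKB2, a subunit gene, was next, at 0.48. CXCL2 and ICAM1 were lowest, at -0.23 and -0.22, and were low in all 4 arrays.

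Between the lines, 5 of the 14 targets were at least 1.5-fold lower in untransfected LTAD than in LNCaP and 0 were higher, against 7.4% and 5.5% of all genes. CCL20, a chemokine, differed most, at 3.997 in untransfected LTAD against 8.76 in LNCaP, where LNCaP alone was above the level mark. CCL2, another chemokine, read 4.80 in untransfected LTAD against 7.15 in LNCaP, low in LTAD. CCL20 read 5.09 with siPSF and 4.80 with siControl.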
